A study of Mus musculus with 14 samples.

Results

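The genes described here are 40 genes of DNA replication and S phase, chosen by name from textbook knowledge of the replication machinery and matched to the gene IDs of the count tables by symbol. Earlier results of these data were known when they were chosen. All 40 were found among the 39179 gene IDs counted, and all 40 were among the 12630 genes tested. RNA was sequenced from follicular B cells taken with a bead isolation kit from spleens of C57BL/6 mice and kept in culture with BAFF, a survival factor of the TNF family, at 50 ng/ml. The 7 groups of 2 libraries each were dbko (relb-/-crel-/-, lacking both RelB and c-Rel) at 0h and 6h, cko (crel-/-) at 0h and 6h, and wt (wild type) at 0h, 6h and 27h. RelB and c-Rel are transcription factor subunits of the NF-kB family. The labels name the same ligand and dose for each group, those at 0h included. No culture without BAFF is part of the design, so BAFF and time in culture cannot be told apart. The labels give neither age nor sex, and they do not state whether a group's libraries stem from different mice, so p-values measure the spread between these libraries, which may be technical. No dbko or cko library was made at 27h.

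A cell copies its genome once per division, in S phase. In G1 the origin recognition complex, with Cdc6 and Cdt1, loads the ring-shaped MCM2-7 helicase onto origins. Cyclin E kinase and other factors then add Cdc45 and GINS to start the helicase, and primase, the polymerases, the sliding clamp PCNA and its loader, flap nuclease and ligase make the new strands from deoxynucleotides that ribonucleotide reductase, thymidylate synthase and thymidine kinase help to supply. Many of these genes are switched on by E2F transcription factors when a resting cell is driven into the cycle. Follicular B cells in the spleen are mostly resting, and BAFF is known mainly for keeping them alive.

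Levels are CPM, read counts brought to a common library size after TMM scaling, and are given for replicate 1 and then replicate 2. A log2 fold change is given ± its standard error from edgeR's quasi-likelihood test on all 14 libraries, with its p adjusted across all 12630 tested genes (Benjamini-Hochberg); called means an adjusted p under 0.05. Gene counts summed to 10497802 to 11888765 per library, and the lowest count of any member in any library was 24 (Gins2 in cko 6h replicate 1, exact Poisson 95% interval 15.4 to 35.7, counting error only). Rel, which encodes c-Rel, stood at 40 and 52.3 CPM in dbko and 58.3 and 52.4 CPM in cko at 0h, against 633 and 621 CPM in wt. Relb was reduced rather than absent, at 53.0 and 65.6 CPM in dbko against 115 and 117 CPM in wt at 0h. The 14 follicular B cell markers with an ID in the tables were counted in every group, at a summed 13054 to 23568 CPM per library. The 2 dbko libraries of each time stood apart from each other: the mean chi-square statistic of a gene, replicate 1 against replicate 2, was 31.86 at 0h and 36.91 at 6h in dbko, 3.98 at 0h and 22.49 at 6h in cko, and 2.91 to 4.85 in the wt groups. Members called in dbko, or their median log2 fold change, are therefore given with and without each dbko replicate. A run without a dbko replicate at both times keeps 1 library per dbko group. Its p-values rest on the spread of the wt and cko libraries alone. Values of single genes and counts of other gene lists in dbko rest on both replicates unless stated. Exons of 14 members overlap an exon of a gene on the opposite strand (Mcm7, Orc1, Orc6, Cdc45, Gins2, Pole, Rfc2, Rfc4, Rfc5, Fen1, Lig1, Tk1, Chaf1a and Ccne2), and without strand information their reads cannot be told apart from those of the partner. Pcna and Tyms have annotated pseudogenes, and since reads that align to several places were left out of the counts, their levels are uncertain. In bulk RNA, fewer cells in S phase and less RNA per cell cannot be told apart.

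Promoter sequences are shown for the 3 members with the smallest adjusted p among those higher at 27h than at 6h in wt (Orc1, E2f2 and Fen1) and for Cdt1, the member called lower there, because the members' course in wt is the main pattern described here. They are the bases before the annotated start, from RefSeq on GRCm38.p6, read 5′ to 3′ on the gene's strand, with any match to TTTCCCGC, TTTGGCGC, TTTCGCGC or TTTGCCGC, letters of E2F sites, in capitals on either strand. Orc1 has a match just before its RefSeq start.
Orc1, chr4:108579204-108579453, plus strand: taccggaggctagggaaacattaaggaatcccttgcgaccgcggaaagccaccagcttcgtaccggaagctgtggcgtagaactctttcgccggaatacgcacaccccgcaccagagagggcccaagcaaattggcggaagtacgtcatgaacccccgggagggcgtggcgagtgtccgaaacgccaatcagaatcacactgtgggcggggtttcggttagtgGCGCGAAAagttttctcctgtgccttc
E2f2 has no match in the bases before the start of its first listed window.
E2f2, chr4:136172024-136172273, plus strand: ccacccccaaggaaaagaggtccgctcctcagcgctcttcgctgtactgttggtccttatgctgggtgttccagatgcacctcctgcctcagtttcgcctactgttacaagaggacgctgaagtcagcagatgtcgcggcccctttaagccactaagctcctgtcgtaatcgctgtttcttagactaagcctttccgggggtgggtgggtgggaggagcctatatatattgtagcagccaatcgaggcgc
Its match lies after the RefSeq start, in this stretch.
E2f2, chr4:136172302-136172323, plus strand: gcggcatatagTTTGGCGCtaa
Fen1 has no match in its first listed window.
Fen1, chr19:10204394-10204643, minus strand: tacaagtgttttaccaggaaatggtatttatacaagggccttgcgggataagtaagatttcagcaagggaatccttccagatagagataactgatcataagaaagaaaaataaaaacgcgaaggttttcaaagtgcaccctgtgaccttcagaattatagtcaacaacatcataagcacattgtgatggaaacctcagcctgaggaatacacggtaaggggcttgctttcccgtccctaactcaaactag
Cdt1 has no match before the start.
Cdt1, chr8:122567765-122568014, plus strand: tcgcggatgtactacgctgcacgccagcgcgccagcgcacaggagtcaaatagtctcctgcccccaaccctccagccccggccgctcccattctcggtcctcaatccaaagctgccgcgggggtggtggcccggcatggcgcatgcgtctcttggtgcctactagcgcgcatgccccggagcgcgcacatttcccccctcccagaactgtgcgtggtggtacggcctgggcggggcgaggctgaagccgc
Its match also lies after the start, in this stretch.
Cdt1, chr8:122568036-122568064, plus strand: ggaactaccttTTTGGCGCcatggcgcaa
Of the 40 members, 33 have an entry in the promoter table; Ccne2, Gins1, Prim2, Pole, Gins2, Mcm4 and Rfc2 do not. In the first listed window of each gene, which runs 300 bases from 250 before the start to 50 after it, 12 of the 33 members held one of the 4 E2F strings (Mcm3, Mcm5, Mcm6, Mcm7, Orc1, Cdc6, Cdt1, Gins3, Pola1, Pold1, Rfc3 and E2f2), or 36.4%, against 2.32% of 27025 genes in the table. CCAAT, the letters of the NF-Y box, was present in 20 of the 33, or 60.6%, against 37.9% of all genes, and TTTGAA, the letters of the CHR element of many mitosis genes, in 4 of the 33, or 12.1%, against 18.1%. Matches of different E2F strings overlapped each other in Mcm5 and Mcm6. When any listed window of a gene counts, 14 of the 33 members held an E2F string, and no share of all genes was computed for that count. Cdt1 and Orc1, which both fell at 6h in wt and moved in opposite directions at 27h against 6h, both hold an E2F string. Fen1, which moved with Orc1, holds none in its first listed window. That window ends before the GENCODE start of Fen1, so the bases next to that start were not searched in it. A match is a description of the letters, not of binding. On GRCm38 with GENCODE M21, Orc1 spans chr4:108579423-108614833 on the plus strand, E2f2 chr4:136172394-136196057 on the plus strand, Fen1 chr19:10199132-10204169 on the minus strand and Cdt1 chr8:122568015-122573554 on the plus strand. The RefSeq and GENCODE starts agree for Cdt1 and differ for Orc1, E2f2 and Fen1. The Orc1 match lies after the GENCODE start of Orc1, and the E2f2 match before that of E2f2.

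Per kilobase of exon, the members' levels in wt at 0h spanned a wide range. Pcna, the sliding clamp, was highest at a mean of 77.9 CPM per kb, followed by Cdt1 at 57.5, Mcm4 at 37.5 and Fen1, the flap nuclease, at 35.7 CPM per kb. The lowest were Tyms, thymidylate synthase, at 1.29 CPM per kb, Mcm10 at 1.37, Gins2 at 1.69 and Cdc6 at 2.05 CPM per kb. The origin licensing genes thus stood at both ends of this order, Cdt1 second and Cdc6 at rank 37 of 40.

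**Figure D1:**
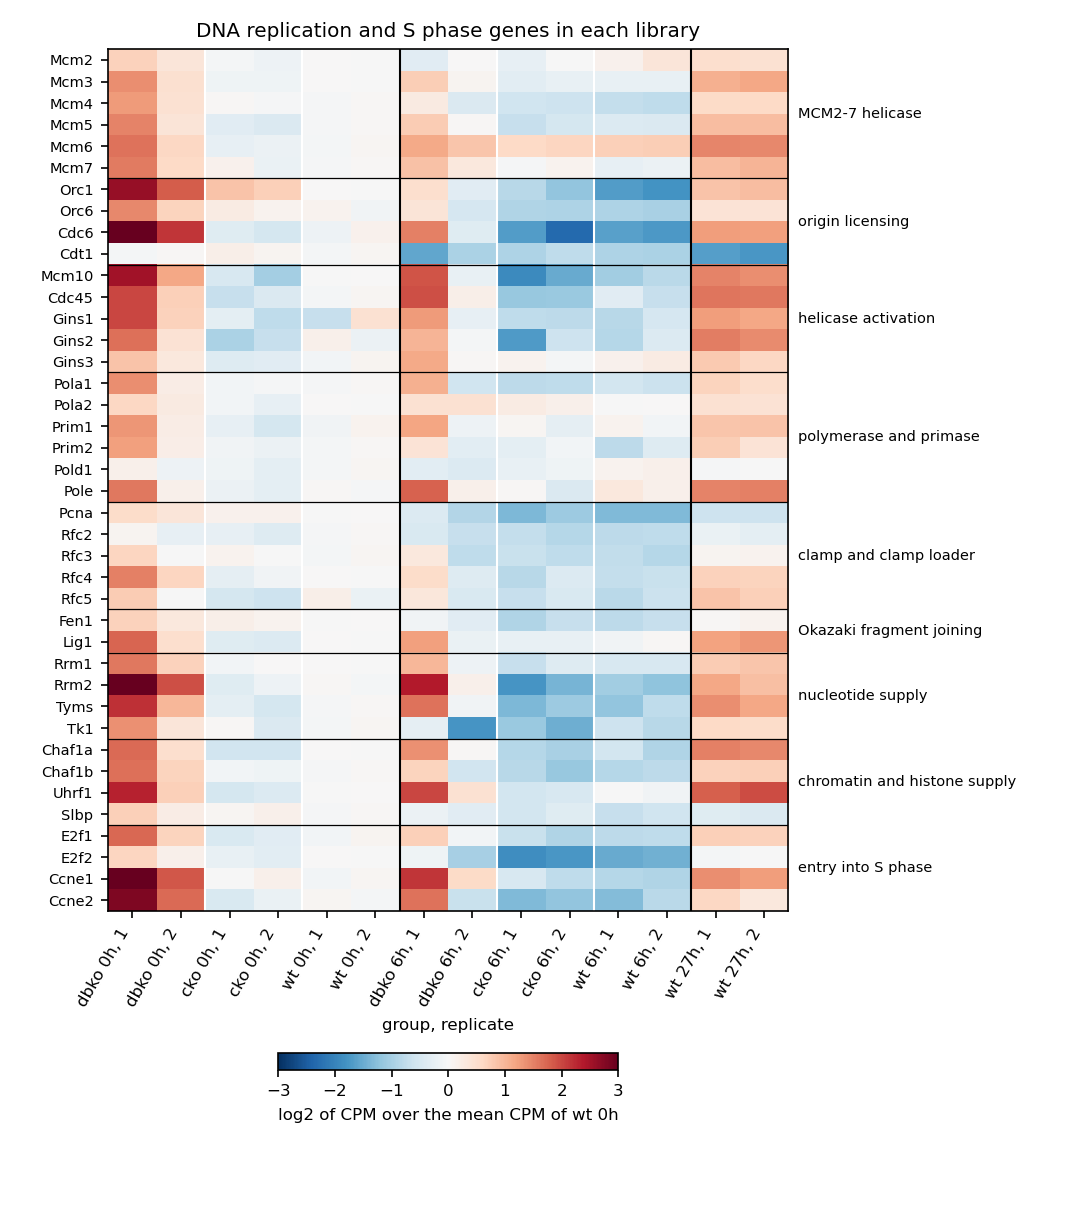
Level of each of the 40 members (rows, grouped by role) in each of the 14 libraries (columns, by group and replicate), as log2 of CPM over the mean CPM of wt at 0h. Replicate 1 of dbko is the darkest column at each time, wt 6h is pale to blue for most rows, and wt 27h is red for most rows, with Cdt1 blue.

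In wt most members stood lower at 6h than at 0h, and at 27h most stood above both earlier times. At 6h, 11 of 40 members (27.5%) were called lower than at 0h and 1 (Mcm6) higher, against 23.5% of all genes called lower and 22.6% called higher; the share called lower was thus near that of all genes, while the median log2 fold change of the members was -0.71 against 0.00 over all genes. At 27h against 6h, 31 of 40 (77.5%) were called higher and 1 (Cdt1) lower, against 15.9% and 18.2% of all genes, with a member median of 1.34 against 0.01. At 27h against 0h, 15 members (37.5%) were called higher and 3 (Cdt1, Pcna and Slbp) lower, against 23.0% and 24.6% of all genes, with a member median of 0.74 against 0.00. Both 6h libraries lay below both 0h libraries and both 27h libraries above both 6h libraries in 30 of 40 members, against 22.4% of all genes, and in 26 of these 30 the 27h libraries also lay above both 0h libraries, against 6.88% of all genes. Mcm2, Mcm6, Gins3 and Pole instead climbed at each step without overlap, a pattern of 11.5% of all genes, and Cdt1 was the member that fell at each step, as 11.7% of all genes did. Fitted on the wt and cko libraries alone, a choice made after seeing the data, the calls at 6h were 28 lower and 2 higher, against 30.4% and 30.3% of all genes, those at 27h against 6h were 36 higher and 1 lower, against 25.5% and 27.5%, and those at 27h against 0h were 32 higher and 4 lower, against 30.6% and 31.3%. Leaving out any one of the 4 wt libraries concerned gave member medians of 1.32 to 1.35 at 27h against 6h and 0.72 to 0.78 at 27h against 0h. Fewer members were called higher in each of these runs. At 27h against 0h their share called higher was then below that of all genes. At 6h against 0h the fit on wt and cko also called E2f1 (adjusted p = 0.000313), Ccne1 (adjusted p = 0.00093) and Rrm2 (adjusted p = 1.85e-05) lower. In what follows on wt, calls are those of the fit on all 14 libraries unless the fit on wt and cko is named.

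Summed levels of cell type markers also changed over time in wt, and their part in the members' levels was not tested. The macrophage and monocyte sum was 44.1 and 43.6 CPM at 6h against 193 and 197 CPM at 0h, with 12 of the 15 tested markers called lower. That of the germinal centre B cell markers was 202 and 209 CPM at 6h against 329 and 350.2 CPM at 0h, with 6 of 9 lower, and that of the erythroid markers 10.3 and 12.1 CPM at 6h against 27.3 and 32.6 CPM at 0h, with 5 of 15 lower. The marginal zone and B-1 B cell sum was 868 and 876 CPM at 6h against 1609.9 and 1596 CPM at 0h, with 4 of 12 lower, and the follicular B cell sum 13054 and 13248 CPM at 6h against 22448 and 22842 CPM at 0h, with 10 of 14 lower. Of the plasma cell markers 1 of 9 was called higher and 4 lower, of the T and NK cell markers 1 of 4 lower, and of the B cell precursor markers 2 of 5 higher and 1 lower. The follicular sum was thus lower at 6h along with those of other cells. At 27h against 6h several sums were higher, as the members' sum was. The plasma cell sum was 967 and 907 CPM at 27h against 531 and 571 CPM at 6h, with 4 of 9 called higher and 2 lower. The T and NK cell sum was 108 and 103 CPM at 27h against 68.8 and 64.2 CPM at 6h, with 2 of 4 higher. In the marginal zone and B-1 B cell list 4 of 12 were higher and 1 lower, at 1109 and 1067 CPM at 27h against 868 and 876 CPM at 6h, and in the macrophage and monocyte list 2 of 15 higher, at 75.9 and 80.4 CPM at 27h against 44.1 and 43.6 CPM at 6h. The follicular B cell sum was 16032 and 16203 CPM at 27h against 13054 and 13248 CPM at 6h, with 3 of 14 higher and 4 lower, and of the B cell precursor markers 2 of 5 were higher and 1 lower. The germinal centre sum was lower, at 139.8 and 133 CPM at 27h against 202 and 209 CPM at 6h, with 4 of 9 lower, and the erythroid sum was 12.3 and 12.1 CPM at 27h against 10.3 and 12.1 CPM at 6h, with 0 of 15 called. Neutrophil markers summed to under 1 CPM in each wt library. Of the T and NK cell markers, Cd3g, Trbc2, Ncr1, Nkg7 and Gzma were at 0 in both 6h libraries, and Cd8a, Ncr1 and Gzma in both 27h libraries.

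The genes that mark entry into S phase followed this course. E2f1, an activating E2F factor, had 14.5 and 16.2 CPM at 0h, 8.88 and 9.0 at 6h and 25.2 and 24.7 at 27h. E2f2, a second activating E2F, had 99.5 and 97.7 CPM at 0h, 34.4 and 36.1 at 6h and 95.1 and 97.6 at 27h. Libraries of the 3 times did not overlap in E2f1, whereas E2f2 at 27h was close to its 0h level. E2f2 fell at 6h (-1.48 ± 0.23, adjusted p = 0.000358) and rose at 27h against 6h (1.45 ± 0.23, adjusted p = 0.000829), whereas E2f1 rose at 27h against 6h (1.48 ± 0.32, adjusted p = 0.0045) but its difference at 6h against 0h did not pass (-0.78 ± 0.33, adjusted p = 0.0695), nor did that at 27h against 0h (0.70 ± 0.31, adjusted p = 0.0816). Ccne1, cyclin E1, had 7.71 and 8.52 CPM at 0h, 4.48 and 4.33 at 6h and 21.4 and 19.2 at 27h. It rose at 27h against 6h (2.20 ± 0.50, adjusted p = 0.00788) and against 0h (1.32 ± 0.48, adjusted p = 0.0426), while the 6h difference of -0.88 ± 0.53, adjusted p = 0.2 did not pass. Ccne2, cyclin E2, was not called in any of the 3 comparisons in the fit on all 14 libraries. The fit on wt and cko called it lower at 6h (adjusted p = 0.00102). That fit also called it higher at 27h against 6h (adjusted p = 3.59e-05) and against 0h (adjusted p = 0.0375).

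All 4 origin licensing genes fell at 6h in wt, and they parted at 27h. Orc1, the largest subunit of the origin recognition complex, had 7.71 and 7.55 CPM at 0h, 2.38 and 2.21 at 6h and 13.8 and 14.5 at 27h. Its log2 fold change at 27h against 6h was 2.62 ± 0.33, adjusted p = 0.000117. Cdc6, a loader of the helicase, had 9.69 and 11.7 CPM at 0h, 3.48 and 3.23 at 6h and 25.6 and 25.1 at 27h. Cdc6 fell at 6h (-1.67 ± 0.62, adjusted p = 0.0483) and rose at 27h against 6h (2.91 ± 0.60, adjusted p = 0.00483), the largest log2 fold change of any member in that comparison. The 6h call of Cdc6 was lost when any single library behind it was left out, and that of Orc6 in some of these runs. Orc1 and Cdt1 kept theirs. The 27h libraries of Cdc6 lay above its 0h libraries, but that difference did not pass (1.24 ± 0.53, adjusted p = 0.0809). Cdt1, the other loader, had 174 and 188 CPM at 0h, 95.5 and 94.0 at 6h and 57.9 and 54.0 at 27h. It fell at 6h (-0.93 ± 0.16, adjusted p = 0.000461), again at 27h against 6h (-0.76 ± 0.16, adjusted p = 0.00345), and over the whole course (-1.69 ± 0.16, adjusted p = 5.18e-06), with no overlap between any 2 times. Cdt1 protein is known to be degraded and inhibited in S phase; RNA alone was measured here.

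The MCM2-7 helicase subunits moved less at 6h than the licensing genes. Of the 6, Mcm4 fell and Mcm6 rose at 6h, 5 rose at 27h against 6h and 5 rose at 27h against 0h. Mcm6 had 106 and 116 CPM at 0h, 182 and 184 at 6h and 308 and 302 at 27h. It was the member called higher at 6h (0.72 ± 0.24, adjusted p = 0.0258) and had the smallest adjusted p of those higher at 27h against 0h (1.46 ± 0.24, adjusted p = 0.000437). The 6h calls of Mcm6 and of Mcm4 were each lost when any one of the 4 libraries behind them was left out. Mcm3 had 131 and 129 CPM at 0h, 112 and 112 at 6h and 274 and 292 at 27h, and rose at 27h against 0h (1.12 ± 0.26, adjusted p = 0.00414). Mcm7 had 69.7 and 73.5 CPM at 0h, 60.7 and 63.1 at 6h and 136 and 144 at 27h, and likewise rose at 27h against 0h (0.97 ± 0.27, adjusted p = 0.012). Mcm2 moved over a smaller range, with 127 and 125 CPM at 0h, 138 and 163 at 6h and 178 and 172 at 27h. Mcm2 rose over the whole course (0.47 ± 0.14, adjusted p = 0.0167), while neither the difference at 6h against 0h (0.26 ± 0.14, adjusted p = 0.167) nor that at 27h against 6h (0.22 ± 0.14, adjusted p = 0.258) passed.

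Of the 5 genes that turn the loaded helicase on (Mcm10, Cdc45 and the GINS subunits Gins1, Gins2 and Gins3), none was called at 6h and 4 were called higher at 27h against 6h, all but Gins3. Their log2 fold changes at 27h against 6h were 2.36 for Mcm10, 2.11 for Cdc45, 2.10 for Gins2 and 1.86 for Gins1. The fit on wt and cko called Cdc45 (adjusted p = 0.012) and Mcm10 (adjusted p = 0.000882) lower at 6h. It also called Gins3 higher at 27h against 6h (adjusted p = 0.0102). Cdc45 had 10.8 and 11.6 CPM at 0h, 8.79 and 6.96 at 6h and 34.2 and 33.6 at 27h, with the 27h libraries well above all others. Among the 6 polymerase and primase genes, Pola2, the second subunit of polymerase alpha, and Prim2, the large primase subunit, were called higher at 27h against 6h. Pola2 had 47.0 and 46.0 CPM at 0h, 46.1 and 46.9 at 6h and 64.1 and 62.5 at 27h, a small but tight rise against 0h (0.45 ± 0.12, adjusted p = 0.00865). Pole, the catalytic subunit of polymerase epsilon, was called higher at 27h against 0h (1.51 ± 0.51, adjusted p = 0.0356). Pold1, that of polymerase delta, had 130.4 and 140.5 CPM at 0h, 145 and 149.8 at 6h and 133 and 134 at 27h, and was not called in wt.

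Of the clamp, its loader and the genes that join Okazaki fragments, Pcna, Rfc2, Rfc3 and Fen1 fell early. The 6h call of Rfc3 was lost when any single library behind it was left out. Pcna had 186 and 188 CPM at 0h, 75.0 and 74.4 at 6h and 121 and 121 at 27h. It had the smallest adjusted p of the members that fell at 6h (-1.32 ± 0.14, adjusted p = 1.69e-05), rose at 27h against 6h (0.70 ± 0.14, adjusted p = 0.00276) and still ended below its 0h level (-0.63 ± 0.14, adjusted p = 0.00273). Rfc2, a small subunit of the clamp loader, had 104 and 108 CPM at 0h, 61.5 and 62.8 at 6h and 91.8 and 86.3 at 27h, and fell at 6h (-0.77 ± 0.13, adjusted p = 0.000389). Rfc5, another, rose at 27h against 6h (1.51 ± 0.28, adjusted p = 0.00179), with 47.6 and 43.6 CPM at 27h against 15.1 and 16.9 CPM at 6h. All 5 genes of this role were called higher at 27h against 6h, and only Rfc5 was called higher than at 0h. Fen1 had 85.9 and 86.9 CPM at 0h, 50.5 and 53.3 at 6h and 89.2 and 92.7 at 27h. Fen1 fell at 6h (-0.73 ± 0.14, adjusted p = 0.000907) and rose at 27h against 6h (0.81 ± 0.14, adjusted p = 0.000927) to close to its starting level. Lig1, the ligase, was not called at 6h and rose at 27h against 0h (1.27 ± 0.44, adjusted p = 0.0381).

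Nucleotide supply genes rose late, and so did Uhrf1, Chaf1a and Chaf1b. Rrm2, the regulated subunit of ribonucleotide reductase, had 28.3 and 26.5 CPM at 0h, 13.3 and 11.9 at 6h and 61.0 and 51.3 at 27h. Its libraries of the 3 times did not overlap; the rise at 27h against 6h passed (2.16 ± 0.64, adjusted p = 0.028), and neither the 6h difference from 0h (-1.12 ± 0.65, adjusted p = 0.189) nor the 27h one (1.03 ± 0.60, adjusted p = 0.189) did. Rrm1, Tyms and Tk1, thymidine kinase, were also called higher at 27h against 6h, so all 4 genes of this role were, and none was called in either comparison with 0h. The fit on wt and cko called all 4 lower at 6h and higher at 27h against 0h. Uhrf1, which binds hemimethylated DNA behind the fork, had 41.9 and 42.3 CPM at 0h, 41.5 and 38.9 at 6h and 146 and 164 at 27h. Its log2 fold change at 27h against 0h was the largest of any member (1.88). Chaf1a and Chaf1b, subunits of chromatin assembly factor 1, rose at 27h against 6h by log2 fold changes of 2.20 and 1.51. Slbp, which binds the histone mRNA stem-loop, had 87.7 and 91.2 CPM at 0h, 55.5 and 59.5 at 6h and 69.2 and 66.7 at 27h, and ended below 0h (-0.40 ± 0.14, adjusted p = 0.0358).

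**Figure D2:**
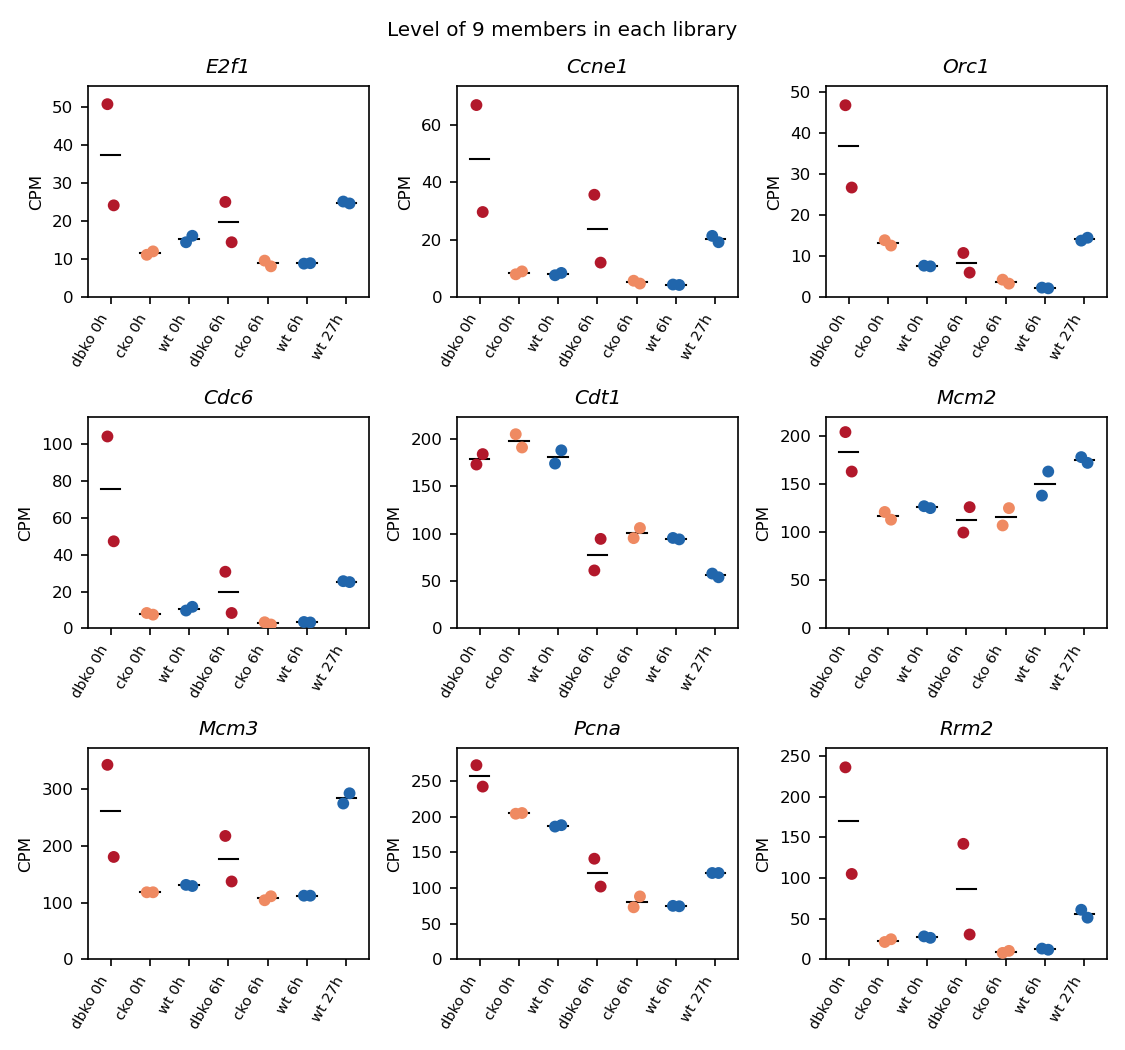
CPM of 9 members (panels) in each library; points are libraries, in red for dbko, orange for cko and blue for wt, and the black bar is the mean of the 2 libraries of a group. In wt most panels dip at 6h and climb by 27h, Cdt1 falls throughout, and dbko replicate 1 at 0h is the highest library in every panel except that of Cdt1, where cko replicate 1 at 0h is.

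In cko, Pcna, Fen1, E2f2 and Cdt1 fell at 6h, as they did in wt. At 6h against 0h, 8 of 40 members (20.0%) were called lower and 2 (Mcm6 and Pola2) higher, against 20.1% and 21.8% of all genes, with a member median of -0.48 against 0.05 over all genes. The share called was thus no higher than that of all genes. Pcna fell to 73 and 88.2 CPM at 6h, set against 204 and 205 at 0h (-1.34 ± 0.14, adjusted p = 1.62e-05). Fen1 fell to 46.2 and 53.9 CPM at 6h, set against 97.7 and 92.9 at 0h (-0.93 ± 0.14, adjusted p = 0.000195). E2f2 fell to 27.1 and 29.4 CPM at 6h, set against 84.6 and 78.6 at 0h (-1.53 ± 0.24, adjusted p = 0.000347). The 2 times did not overlap in any of these 3 genes. Cdt1 fell to 95.3 and 106 CPM at 6h, set against 205 and 191 at 0h (-0.98 ± 0.16, adjusted p = 0.000355), and Orc1, Slbp, Orc6 and Rfc2 were the other members called lower. Mcm6 rose to 167 and 174 CPM at 6h, set against 94.1 and 98.7 at 0h (0.82 ± 0.24, adjusted p = 0.0158), and Pola2 to 55.0 and 52.0 CPM at 6h, set against 43.9 and 39.4 at 0h (0.36 ± 0.12, adjusted p = 0.0298). The Mcm6 and Pola2 calls were both lost when any one of the 4 cko libraries was left out, and that of Pola2 also in DESeq2 (adjusted p = 0.0897). In the fit on the wt and cko libraries alone, 24 members were called lower and 2 higher, against 27.4% and 29.2% of all genes. In the fit on all 14 libraries E2f1 (-0.39 ± 0.33, adjusted p = 0.371), Ccne1 (-0.69 ± 0.51, adjusted p = 0.314), Cdc6 (-1.53 ± 0.65, adjusted p = 0.0834), Mcm2 (-0.01 ± 0.15, adjusted p = 0.979) and Rrm2 (-1.32 ± 0.67, adjusted p = 0.147) were not called. Of these, the fit on wt and cko called E2f1 (adjusted p = 0.0281), Ccne1 (adjusted p = 0.00346), Cdc6 (adjusted p = 3.98e-05) and Rrm2 (adjusted p = 6.66e-06) lower.

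Between cko and wt, edgeR's quasi-likelihood test called 0 of 40 members at 0h and 0 of 40 at 6h, against 0.918% of all genes called higher and 0.578% lower at 0h, and 1.58% higher and 1.96% lower at 6h. At an unadjusted p under 0.05 there were 2 members at each time. The member medians were -0.21 at 0h and -0.12 at 6h. In the fit on the wt and cko libraries alone, whose spread does not include the dbko libraries, 1 member was called higher and 8 lower at 0h, against 5.68% and 5.18% of all genes, and again 1 higher and 8 lower at 6h, against 8.97% and 9.40%. The higher member was Orc1 at both times, with 13.9 and 12.6 CPM in cko against 7.71 and 7.55 in wt at 0h; the 6h libraries had 4.31 and 3.35 CPM in cko against 2.38 and 2.21 in wt. That fit gave Orc1 a log2 fold change of 0.81 ± 0.16 (adjusted p = 0.00438) at 0h, then 0.73 ± 0.22 (adjusted p = 0.0381) at 6h, and its libraries did not overlap at either time. Cdc45, Uhrf1 and Mcm10 were the members called lower in that fit at both times. Uhrf1 had 29.1 and 31.6 CPM in cko against 41.9 and 42.3 in wt at 0h, while its 6h libraries had 28.8 and 30.4 CPM in cko against 41.5 and 38.9 in wt. The 6h response itself, cko minus wt, differed in 0 of 40 members (0 at an unadjusted p under 0.05 too), against 0.554% of all genes higher and 1.15% lower, and in 1 member (Rfc5) in the fit without dbko, against 6.28% and 7.14%.

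In dbko the members were high before culture. At 0h, 19 of 40 members (47.5%) were called higher in dbko than in wt and none lower, against 7.10% and 4.55% of all genes, with a member median of 1.07 against 0.01 over all genes. Against cko, 23 of 40 (57.5%) were called higher and none lower, against 6.63% and 2.39% of all genes, with a member median of 1.25. Both dbko libraries lay above both wt libraries in 35 of 40 members, against 28.8% of all genes, and above both cko libraries in 37, against 27.7%. The size rested on the replicate: replicate 1 exceeded replicate 2 in 39 of 40 members, with a median log2 ratio of 0.99 between them. No share of all genes was computed for this count. Set against the mean of the wt libraries, the median log2 ratio was 1.5 for replicate 1 and 0.46 for replicate 2. Without replicate 1 at both times, 22 members were called higher than wt, against 7.79% of all genes, and 28 higher than cko, against 6.24%. Without replicate 2 at both times, 37 were called higher than wt, against 19.6% of all genes, and 39 higher than cko, against 19.7%. Single libraries also moved these counts: leaving out dbko 0h replicate 1 left 3 members higher than wt and 2 higher than cko, leaving out dbko 0h replicate 2 gave 33 and 37, leaving out wt 0h replicate 1 or 2 left 1, and leaving out cko 0h replicate 1 or 2 left 1 and 0.

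Orc1, Cdc6, Ccne1 and E2f1, genes of licensing and of entry into S phase, were among the members called higher at 0h. Orc1 had 46.7 and 26.7 CPM in dbko, beside 13.9 and 12.6 in cko and 7.71 and 7.55 in wt. It was higher in dbko than in wt (2.26 ± 0.29, adjusted p = 0.000307), a call kept in every alternative run, and than in cko (1.47 ± 0.28, adjusted p = 0.00611). Cdc6 had 104 and 47.2 CPM in dbko, beside 8.36 and 7.46 in cko and 9.69 and 11.7 in wt, with log2 fold changes of 2.82 ± 0.54, adjusted p = 0.00889 against wt and 3.26 ± 0.56, adjusted p = 0.00631 against cko. Ccne1 had 66.9 and 29.7 CPM in dbko, beside 8.04 and 9.05 in cko and 7.71 and 8.52 in wt. Its difference was 2.57 ± 0.48, adjusted p = 0.00747 against wt and 2.50 ± 0.48, adjusted p = 0.0103 against cko. E2f1 had 50.8 and 24.2 CPM in dbko, beside 11.2 and 12.1 in cko and 14.5 and 16.2 in wt, a difference of 1.29 ± 0.31, adjusted p = 0.0198 against wt and 1.68 ± 0.32, adjusted p = 0.00672 against cko. In these 4 genes even the lower dbko library lay above every wt and cko library of the same time. Of the members called in dbko at 0h against wt or cko, only Orc1 against wt kept its call in every alternative run. Cdt1 did not share in this: it had 173 and 184 CPM in dbko, beside 205 and 191 in cko and 174 and 188 in wt, with overlap between dbko and wt.

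At the fork itself, all 6 MCM2-7 subunits were called higher in dbko at 0h, against wt and against cko. Mcm6 had 343 and 172 CPM in dbko, beside 94.1 and 98.7 in cko and 106 and 116 in wt (1.22 ± 0.24, adjusted p = 0.00716 against wt and 1.42 ± 0.24, adjusted p = 0.00411 against cko). Mcm2 had 204 and 163 CPM in dbko, beside 121 and 113 in cko and 127 and 125 in wt (0.54 ± 0.14, adjusted p = 0.0304 against wt and 0.65 ± 0.15, adjusted p = 0.015 against cko). Replicate 2 of dbko was above the wt and cko libraries in both genes, by a smaller margin than replicate 1. The helicase activation genes had a higher median log2 fold change against wt, 1.49, but a wide spread, and 0 of 5 were called against wt and 4 of 5 against cko. Pcna had 272 and 242 CPM in dbko, beside 204 and 205 in cko and 186 and 188 in wt, called against wt (0.46 ± 0.14, adjusted p = 0.0497; adjusted p = 0.0502 with the size factors of DESeq2) and not against cko (0.33 ± 0.14, adjusted p = 0.165). Rrm2 had 236 and 105 CPM in dbko, beside 21.4 and 24.8 in cko and 28.3 and 26.5 in wt. It was higher in dbko than in wt (2.63 ± 0.62, adjusted p = 0.0246) and than in cko (2.88 ± 0.63, adjusted p = 0.0217), and each dbko library was above all 4 others. Rfc2 and Pold1 were not called, with Rfc2 at 113 and 89.2 CPM in dbko against 104 and 108 CPM in wt and Pold1 at 149.5 and 121 CPM in dbko against 130.4 and 140.5 CPM in wt, overlapping in both.

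**Figure D3:**
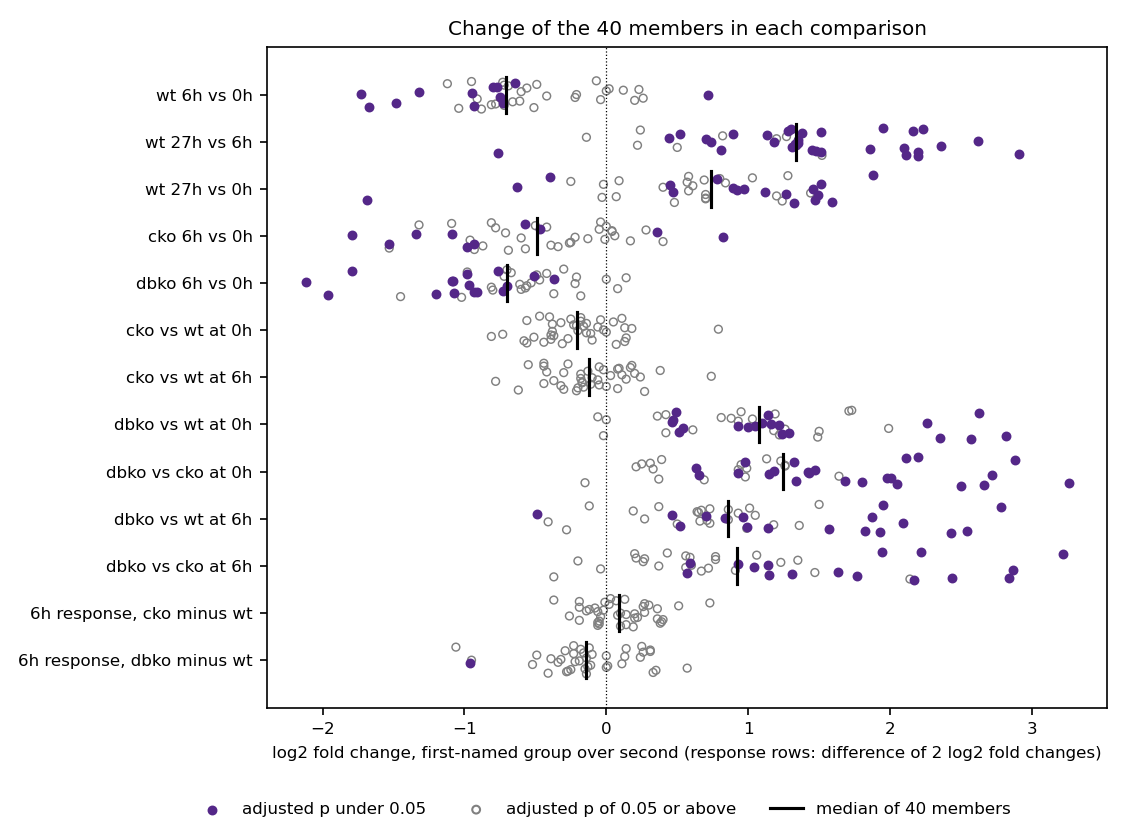
Log2 fold change of each of the 40 members (points) in each of 11 comparisons and 2 differences of responses (rows), filled where the adjusted p was under 0.05; the black bar is the member median. The points lie mostly left of 0 for 6h against 0h in each genotype, right of 0 for 27h in wt and for dbko against wt or cko, and on both sides of 0 for cko against wt.

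After 6h the members still stood higher in dbko. Against wt, 16 of 40 (40%) were called higher and 1 (Pold1) lower, against 15.2% and 11.5% of all genes, with a member median of 0.86 against 0.05 over all genes. Against cko, 16 of 40 were called higher and none lower, against 8.77% and 4.66% of all genes, with a median of 0.92. Without dbko replicate 1 at both times, the member median was 0.33 against wt and 0.34 against cko. Without replicate 2 at both times, it was 1.27 against wt and 1.33 against cko. Without wt 6h replicate 1 or 2 the median against wt was 0.85 or 0.86. Without cko 6h replicate 1 or 2 the median against cko was 0.93 or 0.94. Leaving out dbko 6h replicate 1 alone gave 0.35 against wt and 0.35 against cko, and leaving out dbko 6h replicate 2 alone gave 1.27 and 1.33. Fewer members were called higher in each of these runs except those without dbko 6h replicate 2, where more were.

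E2f2 had 90.7 and 49.5 CPM in dbko, beside 27.1 and 29.4 in cko and 34.4 and 36.1 in wt at 6h (0.99 ± 0.23, adjusted p = 0.00945 against wt and 1.31 ± 0.23, adjusted p = 0.0048 against cko). Orc1 had 10.8 and 6.02 CPM in dbko, beside 4.31 and 3.35 in cko and 2.38 and 2.21 in wt (1.87 ± 0.33, adjusted p = 0.00186 against wt and 1.14 ± 0.31, adjusted p = 0.0307 against cko). Pcna had 141 and 102 CPM in dbko, beside 73 and 88.2 in cko and 75.0 and 74.4 in wt (0.70 ± 0.14, adjusted p = 0.00376 against wt and 0.59 ± 0.14, adjusted p = 0.0163 against cko). The dbko libraries lay above all others of that time in these 3 genes. Rrm2 had 142 and 30.6 CPM in dbko, beside 8.00 and 10.5 in cko and 13.3 and 11.9 in wt (2.78 ± 0.64, adjusted p = 0.0125 against wt and 3.22 ± 0.66, adjusted p = 0.0138 against cko). Ccne1 had 35.7 and 12.1 CPM in dbko, beside 5.80 and 4.82 in cko and 4.48 and 4.33 in wt (2.43 ± 0.50, adjusted p = 0.00644 against wt and 2.17 ± 0.49, adjusted p = 0.0175 against cko). Cdc6 had 30.7 and 8.36 CPM in dbko, beside 3.34 and 2.12 in cko and 3.48 and 3.23 in wt (2.54 ± 0.60, adjusted p = 0.0124 against wt and 2.84 ± 0.61, adjusted p = 0.0154 against cko). In Rrm2, Ccne1 and Cdc6 replicate 1 of dbko was well above replicate 2, and both lay above the wt and cko libraries. E2f1 was also called (1.14 ± 0.32, adjusted p = 0.0214 against wt and 1.15 ± 0.32, adjusted p = 0.035 against cko). Pold1 went the other way, with 108 and 102 CPM in dbko, beside 116 and 124 in cko and 145 and 149.8 in wt (-0.49 ± 0.11, adjusted p = 0.00768 against wt). The call of Pold1 was lost without wt 6h replicate 2. Of the members called in dbko at 6h against wt or cko, only Orc1 and Pcna against wt kept their calls in every alternative run. Mcm2 was not called against wt (-0.41 ± 0.14, adjusted p = 0.0514) or cko (-0.04 ± 0.14, adjusted p = 0.895).

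Within dbko most members stood lower at 6h than at 0h as well. In dbko at 6h against 0h, 16 of 40 (40%) were called lower and none higher, against 20.3% and 19.3% of all genes, with a member median of -0.70 against 0.03 over all genes. Compared within a replicate number, 38 members were lower at 6h in replicate 1 and 38 in replicate 2, and 36 were lower in both. No share of all genes was computed for these counts, and the labels do not say that same-numbered libraries are pairs. Pcna had 141 and 102 CPM at 6h, set against 272 and 242 at 0h (-1.08 ± 0.14, adjusted p = 8.16e-05). Cdt1 had 61.2 and 94.5 CPM at 6h, set against 173 and 184 at 0h (-1.20 ± 0.16, adjusted p = 9.61e-05). Orc1 had 10.8 and 6.02 CPM at 6h, set against 46.7 and 26.7 at 0h (-2.12 ± 0.28, adjusted p = 0.000106). In all 3 genes both 6h libraries lay below both 0h libraries. Fen1 had 80.5 and 68.1 CPM at 6h, set against 140.3 and 107 at 0h (-0.73 ± 0.13, adjusted p = 0.00098). Cdc6 had 30.7 and 8.36 CPM at 6h, set against 104 and 47.2 at 0h (-1.96 ± 0.51, adjusted p = 0.0123), and E2f1 25.1 and 14.5 CPM at 6h, set against 50.8 and 24.2 at 0h (-0.93 ± 0.30, adjusted p = 0.0289). Ccne1 (-1.02 ± 0.44, adjusted p = 0.0917) and Rrm2 (-0.98 ± 0.57, adjusted p = 0.202) were not called, and their libraries of the 2 times overlapped, although each was lower at 6h within both replicate numbers, by log2 differences of -0.91 and -1.29 for Ccne1 and -0.73 and -1.78 for Rrm2. Without dbko replicate 1 at both times the member median was -0.74, and without replicate 2 at both times it was -0.71. Leaving out single libraries gave member medians of -0.16 without dbko 0h replicate 1 and -1.06 without dbko 0h replicate 2. Without dbko 6h replicate 1 the median was -1.29, and without dbko 6h replicate 2 it was -0.28. The size of the fall thus rested on which dbko libraries were kept. All 4 licensing genes were called lower in dbko, as in wt; in cko 3 of 4 were.

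The 6h response in dbko, set against that in wt by the test of the difference, was lower in 1 of 40 members (Mcm2) and higher in none, against 6.94% and 6.90% of all genes, with a member median of -0.15 against 0.05. Mcm2 had 99.6 and 126 CPM at 6h, set against 204 and 163 at 0h, in dbko (-0.70 ± 0.14, adjusted p = 0.00218), and 138 and 163 CPM at 6h, set against 127 and 125 at 0h, in wt (0.26 ± 0.14, adjusted p = 0.167). It thus fell in dbko and not in wt, and the difference of the 2 responses was -0.96 ± 0.20, adjusted p = 0.0107. For the other representatives the difference was -0.15 ± 0.44, adjusted p = 0.858 for E2f1, -0.14 ± 0.69, adjusted p = 0.922 for Ccne1, -0.28 ± 0.81, adjusted p = 0.852 for Cdc6, 0.24 ± 0.20, adjusted p = 0.45 for Pcna and 0.14 ± 0.86, adjusted p = 0.934 for Rrm2. Without dbko replicate 1 at both times 5 members were called lower (Mcm2, Tk1, Mcm6, Ccne2 and Lig1), against 7.90% of all genes. Without replicate 2 at both times 8 were called lower and 1 (E2f2) higher, against 14.9% and 16.2%. Mcm2, Mcm6, Tk1 and Lig1 were called lower in both, and Mcm2 was not called without wt 0h replicate 2 (adjusted p = 0.0527) or without wt 6h replicate 2 (adjusted p = 0.0598).

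Markers of some other cells stood higher in replicate 1 of dbko than in replicate 2, and those of others lower. The summed level of the members was 5099 and 2965 CPM in dbko, beside 2099.7 and 2021 in cko and 2185 and 2240.5 in wt at 0h; at 6h the sums were 3142 and 1906 CPM in dbko, beside 1525 and 1623 in cko and 1648 and 1683 in wt at 6h. The 15 erythroid markers with an ID, genes of red cell precursors, summed to 1829.8 and 912 CPM in dbko, beside 121 and 122 in cko and 27.3 and 32.6 in wt at 0h; at 6h the sums were 169 and 68.0 CPM in dbko, beside 10.0 and 9.89 in cko and 10.3 and 12.1 in wt at 6h. All 15 were called higher in dbko than in wt and than in cko at both times, and all 15 lower at 6h than at 0h in dbko and in cko. Replicate 1 was the higher of the dbko libraries for the members and for the erythroid markers at both times. In wt at 6h Gata1, Epor, Rhag, Add2 and Trim10 were at 0 in both libraries, and in wt at 27h Gata1, Alas2 and Add2. The 16 macrophage and monocyte markers summed to 309.9 and 107 CPM in dbko, beside 33.0 and 32.9 in cko and 44.1 and 43.6 in wt at 6h, and 13 of the 15 tested were called higher in dbko than in wt and than in cko; at 0h they summed to 292 and 169.6 CPM in dbko, beside 52.1 and 47.0 in cko and 193 and 197 in wt. Fcgr1 was at 0 in both cko libraries of each time. The 10 germinal centre B cell markers summed to 323 and 366 CPM in dbko against 329 and 350.2 CPM in wt at 0h, with 0 of the 9 tested called higher and 5 lower, and Mef2b at 0 in both libraries of every group. Other sums were lower in replicate 1 of dbko at 0h. They were 585 and 828 CPM for plasma cell markers and 58.1 and 96.5 for T and NK cell markers. Marginal zone and B-1 markers had 682 and 1330.1 CPM, and follicular B cell markers 17497 and 23568. B cell precursor markers summed to 89.8 and 84.1 CPM, beside 97.4 and 108 in wt at 0h. Neutrophil markers summed to 6.11 and 3.64 CPM, beside 0.625 and 0.968 in wt at 0h. The part of these cells in the members' levels was not tested.

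**Figure D4:**
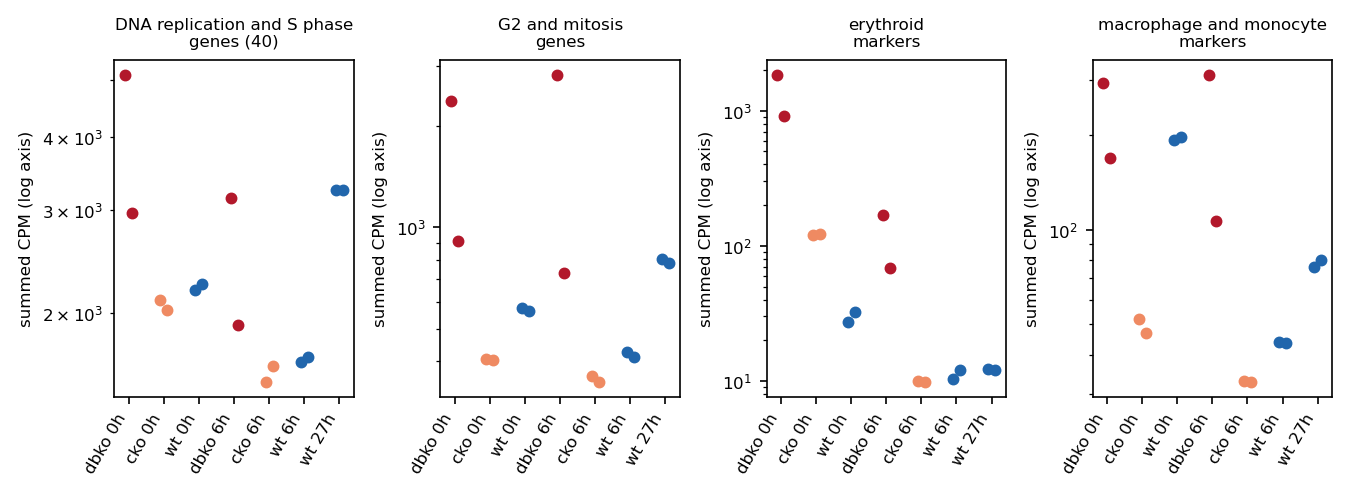
Summed CPM on a log axis of the 40 members, the G2 and mitosis genes, the erythroid markers and the macrophage and monocyte markers (panels) in each library (points; red dbko, orange cko, blue wt). The dbko libraries, replicate 1 left of replicate 2, are the highest of their time in the first 3 panels, and in wt the members reach at 27h a level above 0h while the erythroid sum stays low.

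Most genes of the later steps of the cell cycle were called higher in dbko than in wt and than in cko at 6h. The 25 G2 and mitosis genes, such as Mki67, a marker of cycling cells, and Top2a, which untangles chromosomes, summed to 576 and 562 CPM at 0h, 427 and 411 at 6h and 804 and 781 at 27h in wt. At 27h against 6h in wt 2 of 25 were called higher (Cdk1, 2.00 ± 0.59, adjusted p = 0.0261, and Plk1, 1.40 ± 0.49, adjusted p = 0.0475) and 1 lower (Cenpa, -0.79 ± 0.10, adjusted p = 0.000145), at a list median of 1.19 beside 1.34 for the members. In dbko they summed to 2824 and 730.4 CPM at 6h, set against 2375 and 912 at 0h, with 0 of 25 called between the times, 24 of 25 called higher in dbko than in wt at 6h (15.2% of all genes) and 2 of 25 at 0h (7.10%). Against cko, 23 of 25 were called higher at 6h (8.77% of all genes) and 11 of 25 at 0h (6.63%). The 4 with the smallest adjusted p at 6h against wt were Ndc80, Plk1, Ube2c and Cdc20, with log2 fold changes of 1.5, 2.24, 2.42 and 1.60. Mki67 had 574 and 109 CPM in dbko, beside 36.7 and 28.5 in cko and 66.8 and 52.1 in wt at 6h, and Top2a 589 and 119 CPM in dbko, beside 51.9 and 45.8 in cko and 64.4 and 66.2 in wt. Replicate 1 of dbko held several times the level of replicate 2 in both. Between 6h and 0h in dbko the replication and S phase genes thus had a median log2 fold change of -0.70 and the G2 and mitosis genes one of 0.03. The G2 and mitosis sum was higher at 6h in replicate 1 (2824 against 2375 CPM) and lower in replicate 2 (730.4 against 912 CPM). The members' sum was lower at 6h in both (3142 against 5099 CPM and 1906 against 2965 CPM). The difference of the lists was not tested.

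Of the other genes of replication, more were called higher than lower at 27h in wt. Of 40 other replication fork and origin genes, 3 (7.5%) were called higher and 7 (17.5%) lower in wt at 6h, shares below the 22.6% and 23.5% of all genes. At 27h against 6h, 20 (50%) were higher and 1 (2.5%) lower, against 15.9% and 18.2% of all genes, and at 27h against 0h 16 (40%) higher and 3 (7.5%) lower, against 23.0% and 24.6%. Rpa1, the large subunit of the single-strand binding protein RPA, fell at 6h (-0.85 ± 0.14, adjusted p = 0.000437) and rose at 27h against 6h (0.79 ± 0.14, adjusted p = 0.00136). Pole2, a subunit of polymerase epsilon, rose at 27h against 6h (1.62 ± 0.31, adjusted p = 0.00207), as did Gmnn, geminin, the inhibitor of Cdt1 (2.01 ± 0.44, adjusted p = 0.00651). Orc4 was the one called lower at 27h against 6h (-0.56 ± 0.12, adjusted p = 0.00426). Pold4, an accessory subunit of polymerase delta, fell in wt at 6h (-1.96 ± 0.18, adjusted p = 4.66e-06), where Orc3 rose (0.77 ± 0.11, adjusted p = 0.000119). In dbko, 7 of these 40 (17.5%) were called higher and 1 (2.5%) lower than in wt at 0h, against 7.10% and 4.55% of all genes, and 9 (22.5%) higher and 2 (5%) lower at 6h, against 15.2% and 11.5%. Dbf4, the activating subunit of Cdc7 kinase, was higher in dbko at both times (0.59 ± 0.12, adjusted p = 0.00782 at 0h and 0.71 ± 0.12, adjusted p = 0.00164 at 6h).

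Other nucleotide supply genes did not share the fall of the members at 6h. Of the 21 tested, 10 (47.6%) were called higher and 1 (4.76%) lower at 6h in wt, against 22.6% and 23.5% of all genes. At 27h against 0h 15 (71.4%) were higher and 2 (9.52%) lower, against 23.0% and 24.6%, and the list medians were 0.67 and 1.01. The genes with the smallest adjusted p at 6h were Shmt2 (1.73 ± 0.19, adjusted p = 2.39e-05) and Mthfd2 (1.8 ± 0.21, adjusted p = 4.19e-05), mitochondrial enzymes of one-carbon metabolism, Cad (1.22 ± 0.17, adjusted p = 0.000113), which starts pyrimidine synthesis, and Shmt1 (1.55 ± 0.22, adjusted p = 0.000123). Cad had 87.9 and 90.1 CPM at 0h, 225 and 191 at 6h and 243 and 257 at 27h in wt, rising early, and Dut, which removes dUTP, rose at 27h against 6h (1.71 ± 0.27, adjusted p = 0.000741). In dbko the 6h response of Cad was lower than in wt by the test of the difference (-1.0 ± 0.24, adjusted p = 0.0168), with 106 and 129 CPM at 6h against 121 and 81.0 CPM at 0h in dbko.

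Among 25 tested E2F, RB and G1/S control genes, 7 (28%) were called higher and 5 (20%) lower at 27h against 6h in wt, against 15.9% and 18.2% of all genes, so the share lower was near that of all genes. At 6h against 0h 3 (12%) were called in each direction, below the 22.6% and 23.5% of all genes. Cdk6, a cyclin D kinase, rose at 6h in wt (1.47 ± 0.14, adjusted p = 5.57e-06), with 18.4 and 18.0 CPM at 0h, 49.5 and 51.7 at 6h and 39.9 and 38.2 at 27h. Its 6h response was lower in cko (-1.11 ± 0.19, adjusted p = 0.0179) and in dbko (-1.57 ± 0.19, adjusted p = 0.000666), and its 6h level was 22.8 and 21.4 CPM in dbko and 27.6 and 23.9 CPM in cko. Ccnd1, cyclin D1, fell at 6h in wt (-3.90 ± 0.42, adjusted p = 1.81e-05), in cko (-2.76 ± 0.39, adjusted p = 0.00014) and in dbko (-3.24 ± 0.37, adjusted p = 3.09e-05). Ccnd2, cyclin D2, had 186 and 182 CPM at 0h, 95.2 and 91.1 at 6h and 319 and 321 at 27h in wt, and fell at 6h in cko (-2.70 ± 0.40, adjusted p = 0.000501) and dbko (-2.64 ± 0.39, adjusted p = 0.000535). At 27h against 6h in wt the inhibitor Cdkn1a (p21) rose (1.65 ± 0.19, adjusted p = 7.47e-05) and Cdkn1b (p27) fell (-0.75 ± 0.12, adjusted p = 0.000639), beside the rise of 31 members. In dbko against wt at 0h 3 (12%) were called higher and none lower, against 7.10% and 4.55% of all genes, with Ccnd3, cyclin D3, first (0.97 ± 0.21, adjusted p = 0.011).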

How the data were processed

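RNA of cultured mouse follicular B cells was measured in 14 libraries of 7 groups. The deposited values are whole-number counts of reads per Ensembl gene ID, with no normalization and 1 table per library. Per the labels' protocols, RNA was column purified, reverse transcribed with poly-dT primers and made into Illumina TruSeq libraries, and the submitters' processing notes name CASAVA 1.8.2; for the aligner, counter, genome build, annotation and strand setting the sources used here give no name. Per the tables' closing tallies, 5.21 to 11.46% of reads lay in no feature and 38.77 to 49.85% aligned to several places, and both stayed out of library sizes and tests. Replicate 1 was sequenced in lane 7 and replicate 2 in lane 8.

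IDs were matched to GENCODE M21 on GRCm38: 37693 of 39179 IDs, with 99.56% of counts. Counts were scaled by TMM, filtered by filterByExpr (12630 genes) and fitted in edgeR 4.0.16 (R 4.3.3, limma 3.58.1) with 1 mean per group over all 14 libraries, robust quasi-likelihood, two-sided tests and 7 residual degrees of freedom; the biological coefficient of variation common to all genes was 0.144. Alternatives were DESeq2 1.42.0, its size factors in edgeR, no filter, a replicate block and libraries left out, and, chosen after seeing the data, a fit on the wt and cko libraries alone and a replicate block within each genotype. The fit was tested on simulated data. Other values used Python 3.11.15, pandas 2.3.3, NumPy 2.4.6, SciPy 1.17.1 and Matplotlib 3.10.9.

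The members, gene lists and comparisons were chosen with earlier results of these data known. Values are given for the 4 called members with the smallest adjusted p in each direction of each comparison, for members called against the direction of most, and for E2f1, Ccne1, Cdc6, Mcm2, Pcna and Rrm2; other members are counted. Of other lists, up to 4 called genes with the smallest adjusted p are named. Orc1 and Uhrf1 in the fit on wt and cko, and Mki67 and Top2a, were named after their values were seen.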

Additional observations from a re-analysis of the deposited data

Results flagged for a closer look

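The 6h response of Mcm2 differed between dbko and wt by the test of the difference itself, by -0.96 ± 0.20 on the log2 scale (adjusted p = 0.0107, edgeR), with 99.6 and 126 CPM at 6h, set against 204 and 163 at 0h, in dbko, beside 138 and 163 at 6h, set against 127 and 125 at 0h, in wt. Over the alternatives the difference ranged from -1.29 (without dbko replicate 2 at both times) to -0.63 (without dbko replicate 1 at both times), with adjusted p between 2.16e-05 and 0.0598.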

How the results depend on the processing

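Of 1660 values recomputed for the 164 called results of single members, 1289 kept direction and call, 371 lost the call and 0 reversed; with no library left out, 6 of 816 lost it. Each direction and call was kept under every alternative for 40 of the 164. Depth was even, so it does not separate the groups, but members of low count, such as Gins2, have wide counting intervals.

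Counts of members called that moved by over 1.5 times follow, each with the share of all genes called in that direction in brackets. Runs that left 1 library in a group are given by the member median log2 fold change instead, and many of their counts moved as well. The cause was not tested, except that leaving out a library leaves fewer samples. With no filter on low counts there were 26 lower (14.8%) for wt 6h against 0h and 30 higher (14.0%) for wt 27h against 0h. For cko 6h against 0h there were 1 higher (11.7%) and 21 lower (13.8%), and for dbko 6h against 0h 31 lower (13.8%). For cko against wt there were 1 higher (1.84%) at 0h and 1 lower (2.91%) at 6h. For dbko against wt there were 34 higher (7.07%) at 0h, and 32 higher (10.1%) and 2 lower (8.56%) at 6h. For dbko against cko at 6h there were 30 higher (7.64%) and 1 lower (4.28%), and for the dbko minus wt response 3 lower (5.94%). DESeq2 gave 1 higher (17.5%) and 13 lower (20.9%) for cko 6h against 0h. It gave 25 higher (13.5%) and 2 lower (12.0%) for dbko against wt at 6h and 3 lower (8.09%) for the dbko minus wt response. The size factors of DESeq2 in edgeR gave 1 higher (19.3%) for cko 6h against 0h. They gave 2 lower (12.2%) for dbko against wt at 6h and 2 lower (7.51%) for the dbko minus wt response. The fit on the wt and cko libraries alone gave 2 higher (30.3%) and 28 lower (30.4%) for wt 6h against 0h. It gave 32 higher (30.6%) for wt 27h against 0h and 24 lower (27.4%) for cko 6h against 0h. For cko against wt it gave 1 higher (5.68%) and 8 lower (5.18%) at 0h, and 1 higher (8.97%) and 8 lower (9.40%) at 6h. For the cko minus wt response it gave 1 higher (6.28%). Without dbko replicate 1 at both times there were 28 lower for dbko 6h against 0h, 2 lower for dbko against wt at 6h and 5 lower for the dbko minus wt response. Without dbko replicate 2 at both times there were 30 lower for dbko 6h against 0h, 37 and 39 higher for dbko against wt and cko at 0h, 36 higher and 3 lower against wt and 35 higher and 1 lower against cko at 6h, and 1 higher and 8 lower for the dbko minus wt response.

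Leaving out each library of a comparison in turn gave 0 higher and 7 to 8 lower for wt 6h against 0h, 12 to 20 higher and 1 lower for wt 27h against 6h, 2 to 4 higher and 2 lower for wt 27h against 0h, 0 higher and 6 to 7 lower for cko 6h against 0h, 8 to 34 lower for dbko 6h against 0h, 1 to 33 and 0 to 37 higher for dbko against wt and cko at 0h, 2 to 33 higher and 0 to 3 lower against wt and 0 to 30 higher and 0 to 1 lower against cko at 6h, 0 for cko against wt at either time and for the cko minus wt response, and 0 to 1 higher and 0 to 3 lower for the dbko minus wt response. A lone library was assumed to vary like the other groups.

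The replicate numbers are sequencing lanes, and the labels do not say that they pair samples. Of 21 pairs of groups, 4 had a correlation of same-numbered deviations over 0.1, in a range of -0.17 to 0.48, the highest between dbko 0h and dbko 6h, so dbko libraries of 1 number deviated together. With the replicate block, 13 members were called lower for cko 6h against 0h (20.6% of all genes), and no other count moved by over 1.5 times. A replicate block within each genotype gave 27 lower for wt 6h against 0h (27.3%) and 31 higher for wt 27h against 0h (26.5%). It gave 22 lower for cko 6h against 0h (23.9%) and 34 lower for dbko 6h against 0h (24.2%).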
